A study of Homo sapiens with 24 samples.

Results

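KMS-12-PE is a human multiple myeloma cell line, grown from the malignant plasma cells of a pleural effusion. The data described here are its response to the depletion of IRF4, taken as the 3 KMS-12-PE libraries labelled siIRF4 against the 3 KMS-12-PE libraries labelled CTRL, 6 of the 24 libraries in the study. siIRF4 cells received a pool of small interfering RNAs against IRF4 by electroporation and were harvested after 48 hours, while CTRL cells carry the label DMSO at 0 hours and no control siRNA is named for them. By these labels the siRNA, the solvent and the time all differ between the groups, and whether CTRL cells were electroporated is not stated, so the effects of these cannot be told apart. The other 18 libraries hold the same design in 3 further myeloma lines, KMS-12-BM, MM1R and MM1S, with 3 siIRF4 and 3 CTRL libraries each, and are used below for comparison. No label says whether the replicates came from separate cultures, so p-values measure the spread between libraries, which may be technical.

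IRF4 (interferon regulatory factor 4) is the transcription factor that drives the change of an activated B cell into a plasma cell. Myeloma cells depend on it, and it is known to bind both composite sites shared with ETS factors and the interferon-stimulated response elements that other members of its family use. Plasma cells are secretory cells with a large endoplasmic reticulum (ER), and the ER folding machinery, the BLIMP1 repressor (gene PRDM1) and the BCMA receptor (gene TNFRSF17) belong to their standard programme.

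Expression is given as TPM, a transcript level scaled for transcript length and library size. A gene was tested where it reached 1 TPM in at least 3 of the 6 libraries, which 12423 genes did. Of these, 24 were set aside because they stood under 2% of their mean level in MM1R and MM1S in both conditions, and 12399 were tested. Among the genes tested, 38 stood under 5% of that level in both conditions. Changes are differences of log2(TPM + 1), siIRF4 minus CTRL, from limma, given as log2 change ± standard error, and a gene is called where p, adjusted by Benjamini and Hochberg's method, is under 0.05. The scale with 1 TPM added understates the change of genes near or under 1 TPM. A gene that reached 1 TPM in only 1 of the groups entered the test through that group, which favours calls toward it. In a bulk sample, fewer cells of a type and less RNA per cell cannot be told apart.

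Sequencing depth was even, with 19144262 to 24252956 recovered reads in siIRF4 libraries and 20949153 to 21538704 in CTRL libraries. Of the genes tested, 4846 (39.1%) were called, 2115 higher in siIRF4 (17.1%) and 2731 lower (22.0%), and the median change over all tested genes was -0.02. In 51.4% of tested genes the values of the groups did not overlap, and the statements on overlap below are to be read against that share. Counts of list members called are likewise to be read against the shares of all tested genes called. A test on recovered whole reads called 2997 higher and 2454 lower, so the balance of directions depends on the scaling. Most called changes were small, with a median size of 0.30, and a change of at least 1 was called in 131 genes higher in siIRF4 (1.06%) and in 147 lower (1.19%).

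**Figure D1:**
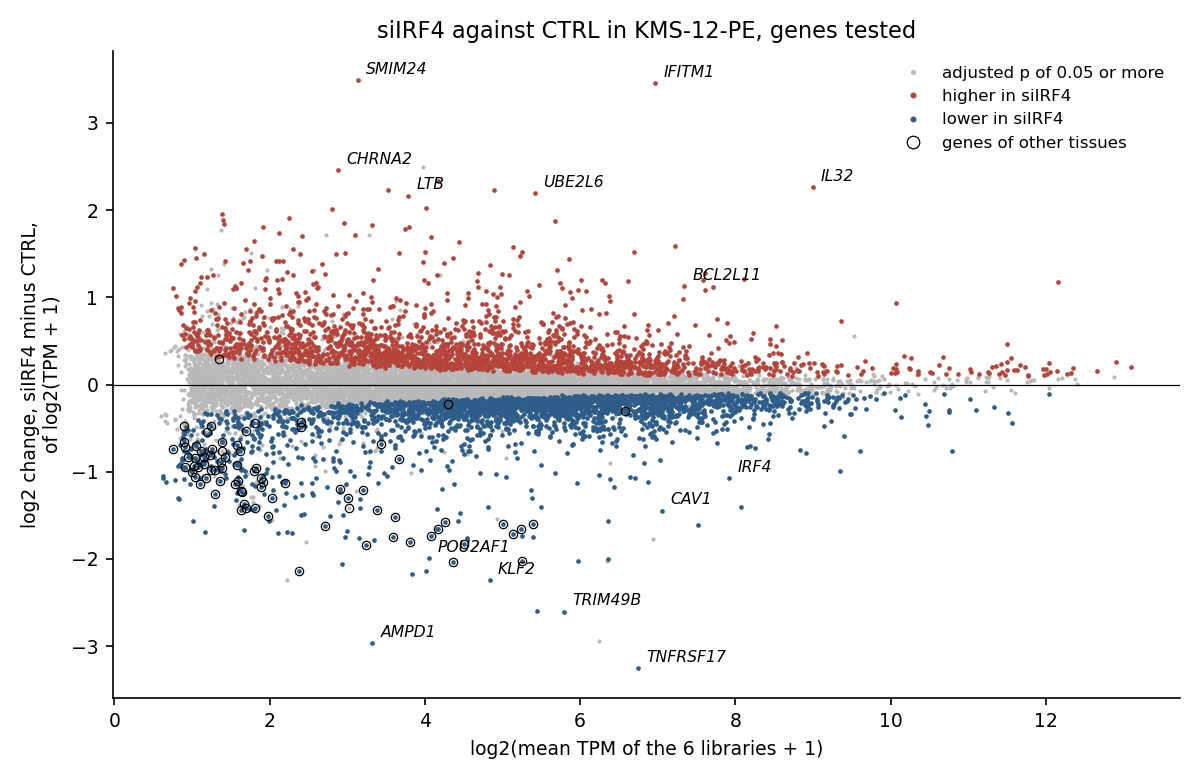
Log2 change (siIRF4 minus CTRL, vertical) against mean level (log2 of mean TPM + 1, horizontal) for each tested gene. Red points were called higher and blue points lower in siIRF4. Open circles mark 79 genes, labelled as genes of other tissues but chosen by level in the other lines, of which 72 were called lower. IFITM1 and SMIM24 lie highest and TNFRSF17 lowest.

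IRF4 itself fell. It stood at 154, 152 and 160.0 TPM in siIRF4 libraries, against 338, 326 and 318 TPM in CTRL libraries. Every siIRF4 library was below every CTRL library, with little spread within either group. The change was -1.07 ± 0.04 (adjusted p 2.2e-08), and an exact two-sided permutation test gave p = 0.1, the smallest that 3 against 3 libraries allow. The transcript was 2.11-fold lower, so a good part of it remained at 48 hours. IRF4 changed by -0.70 in KMS-12-BM, -0.39 in MM1R and -1.01 in MM1S. The difference of the change, KMS-12-PE minus KMS-12-BM, was -0.37 (adjusted p 0.0053), and KMS-12-PE minus the mean of the MM1 lines was -0.37 (adjusted p 0.00067). All differences between lines below are differences of this kind, from 1 fit over the 24 libraries, in which 25.7% of all tested genes differed from KMS-12-BM and 46.3% from the MM1 lines.

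Some plasma cell transcripts stayed abundant in both groups, including some that were called lower. Of 27 tested genes of plasma cell identity 17 were called lower, TNFRSF17, POU2AF1, SLAMF7 and PRDM1 among them, as described below. SDC1 (the plasma cell surface proteoglycan CD138) averaged 167 TPM in siIRF4 against 182 TPM in CTRL. XBP1 (the factor that expands the ER) averaged 368 TPM in siIRF4 against 395 TPM in CTRL. IGJ (the immunoglobulin joining chain) averaged 2357 TPM in siIRF4 against 2814 TPM in CTRL. XBP1 and IGJ were called lower, with changes of -0.10 and -0.25, calls lost in 10 and 1 of 19 alternatives. Of the defining B cell genes, MS4A1 was at 0 in all 6 libraries and PAX5 and CD22 stayed at or under 0.10 TPM. KMS-12-PE also held the cyclin D1 transcript CCND1 at 479.5 TPM in siIRF4 against 497 TPM in CTRL, where the test called no change.

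RNA typical of other tissues was present and moved with the groups. The 79 tested genes under 0.2 TPM in all MM1R and KMS-12-BM groups but at 1 TPM or more in MM1S CTRL, a pattern defined after the data were seen, include keratins, small proline-rich proteins, DCN and PI3. They were chosen by level alone, without tissue annotation, and are called genes typical of other tissues below. They summed to 305 to 357 TPM in KMS-12-PE siIRF4 libraries, against 766 to 961 TPM in KMS-12-PE CTRL libraries. The groups did not overlap, 72 of the 79 were called lower and none higher, and the median change was -1.06. Among lists of cell type markers, the summed level of myeloid markers was 36.4 to 51.5 TPM in siIRF4, against 147 to 183 TPM in CTRL. Stromal markers summed to 101 to 121 TPM in siIRF4 and 188 to 255 TPM in CTRL, with 9 of 11 tested markers called lower. SPARC made up a large part of the stromal sum in siIRF4, with 56.5 to 60.5 TPM there and 63.6 to 72.6 TPM in CTRL. Epithelial markers summed to 189 to 212 TPM in siIRF4 and 288 to 320.3 TPM in CTRL, with 7 of 9 called lower and 1, CLDN4, called higher. CLDN4 reached 1 TPM only in siIRF4 libraries. Most of the epithelial sum in siIRF4 was EPCAM, which averaged 138.6 TPM in siIRF4 against 129.1 TPM in CTRL and was not called. PDGFRB, CDH1 and DSP reached 1 TPM only in CTRL libraries, so the filter partly set these counts of lower calls. How many of the 79 genes did so was not counted. The myeloid sum was nearly all S100A8 and S100A9, since LYZ and CSF1R, which define myeloid cells, stayed at or under 0.141 TPM.

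Of the 24 genes set aside, 19 had a lower mean in siIRF4. UCHL1, MAF, SULF2, BARX2 and TNFRSF13B, among others, reached 1 TPM only in CTRL libraries. The filter therefore partly set that count and the shares over these genes given below. ITGB7, the beta 7 integrin subunit, averaged 9.90 TPM in siIRF4 and 61.6 TPM in CTRL, 0.0723% and 0.514% of its mean level in the MM1 lines in the same condition. Taken over all set-aside genes, the libraries stood at 0.152%, 0.147% and 0.138% of the MM1 level in siIRF4, against 0.589%, 0.585% and 0.800% in CTRL. The part of such RNA in the results below was not tested beyond 2 alternatives, in which the tissue genes were set aside or each library's MM1 share was subtracted, and these called 2118 and 2178 genes higher and 2660 and 2577 lower.

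**Figure D2:**
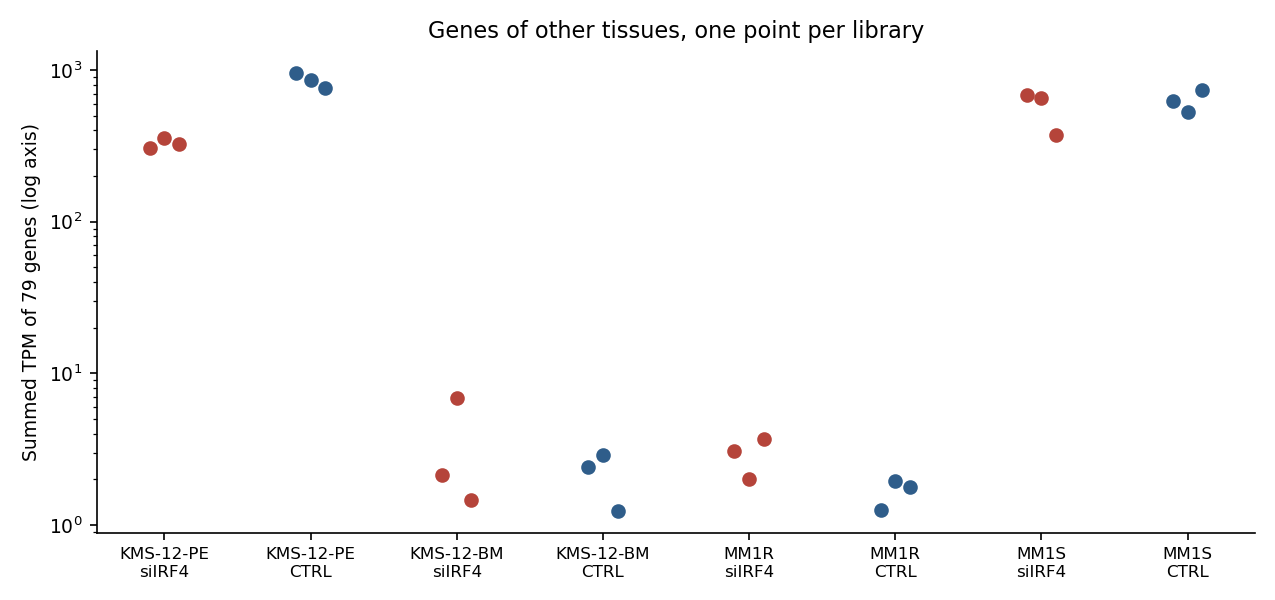
Summed TPM (log axis) of the 79 genes chosen by level, labelled as genes of other tissues, in each of the 24 libraries, siIRF4 in red and CTRL in blue. Both MM1S groups and both KMS-12-PE groups lie above 300 TPM, KMS-12-PE siIRF4 below KMS-12-PE CTRL, and KMS-12-BM and MM1R lie under 7 TPM.

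Genes of plasma cell identity mostly fell. Of 27 tested, 17 were called lower and 5 higher in siIRF4, with a median of -0.25. The count called higher was 3 without siIRF4 replicate 1 or 3, without CTRL replicate 3 and without the filter on low values. The gene with the largest fall on the log2(TPM + 1) scale was TNFRSF17, the receptor for the survival factors BAFF and APRIL. It stood at 18.2, 19.5 and 20.3 TPM in siIRF4 libraries, against 189.6, 183 and 208 TPM in CTRL libraries. The groups lie far apart, with a 10.0-fold lower mean in siIRF4, and the change was -3.26 ± 0.06 (adjusted p 2.0e-10). It fell further than in KMS-12-BM (difference -1.42, adjusted p 1.3e-10) and than in the MM1 lines (difference -2.39, adjusted p 8.3e-16). KMS-12-BM held TNFRSF17 at 85.8 TPM in siIRF4 against 308 TPM in CTRL, MM1R at 526 TPM in siIRF4 against 857 TPM in CTRL and MM1S at 239 TPM in siIRF4 against 489.9 TPM in CTRL. With each library's MM1 share subtracted the change was -3.26 as well.

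POU2AF1, the coactivator OCA-B that works with octamer-binding factors, stood at 5.98, 5.80 and 5.23 TPM in siIRF4 libraries, against 26.7, 26.0 and 23.8 TPM in CTRL libraries. The highest siIRF4 library lies far under the lowest CTRL library, and the change was -1.99 ± 0.07 (adjusted p 2.3e-08). KMS-12-PE held far less of this transcript than the other lines, where CTRL means were 179 TPM in KMS-12-BM, 407 TPM in MM1R and 307 TPM in MM1S. It fell further than in KMS-12-BM (difference -1.54, adjusted p 8.7e-12) and than in the MM1 lines (difference -1.53, adjusted p 2.1e-13).

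Of the other regulators of the plasma cell state, some fell less far and some were higher in siIRF4. IKZF1 had 32.1 to 35.0 TPM in siIRF4 libraries, against 24.2 to 27.1 TPM in CTRL libraries. IKZF3 had 41.1 to 42.6 TPM in siIRF4 libraries, against 33.3 to 40.3 TPM in CTRL libraries. ELL2, the elongation factor that favours the secreted form of immunoglobulin mRNA, had 37.4, 37.3 and 39.4 TPM in siIRF4 libraries, against 85.7, 83.2 and 85.1 TPM in CTRL libraries (-1.13 ± 0.05, adjusted p 3.6e-08). PRDM1 had 26.1, 23.8 and 25.4 TPM in siIRF4 libraries, against 48.5, 46.8 and 42.6 TPM in CTRL libraries (-0.85 ± 0.06, adjusted p 4.0e-06). The groups of ELL2 and of PRDM1 do not overlap. MEF2C, a factor of B lymphoid cells, fell by 0.75. XBP1 changed by -0.10 (adjusted p 0.042), a call lost in 10 of 19 alternatives, where its adjusted p ranged from 0.0048 to 0.28. In KMS-12-BM and the MM1 lines ELL2 fell by less, with differences of -0.49 and -0.89 (adjusted p 7.6e-05 and 3.7e-10).

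Surface antigens used as myeloma targets behaved unequally. SLAMF7, the antigen of the antibody elotuzumab, had 74.8, 69.1 and 73.6 TPM in siIRF4 libraries, against 154, 161 and 162 TPM in CTRL libraries (-1.12 ± 0.04, adjusted p 3.5e-08). GPRC5D, an orphan receptor of plasma cells, fell, with 2.91 TPM in siIRF4 against 7.23 TPM in CTRL (-1.07, adjusted p 0.00026). Neither gene's groups overlap. CD38, a surface enzyme and antibody target, averaged 171 TPM in siIRF4 against 197 TPM in CTRL, a change of -0.21 whose call was lost in 3 of 19 alternatives. SDC1 changed by -0.12 and was not called (adjusted p 0.071). The opposite direction was taken by TNFRSF18, the costimulatory receptor GITR, with 217, 225 and 226 TPM in siIRF4 libraries, against 72.5, 74.6 and 72.6 TPM in CTRL libraries (1.59 ± 0.04, adjusted p 1.4e-09). Its rise exceeded that in KMS-12-BM by 1.13 (adjusted p 0.0022), while MM1R and MM1S held it at or under 1.11 TPM. CD28, the costimulatory receptor that myeloma cells share with T cells, also rose, with 9.05 TPM in siIRF4 against 4.74 TPM in CTRL (0.80, adjusted p 8.7e-05). TXNDC5, an ER disulfide isomerase, averaged 31.1 TPM in siIRF4 against 132 TPM in CTRL, but 1 CTRL library stood far below the others (154, 161 and 79.4 TPM), and the call at adjusted p 0.017 was lost in 4 of 19 alternatives, where it ranged from 0.00019 to 0.093.

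**Figure D3:**
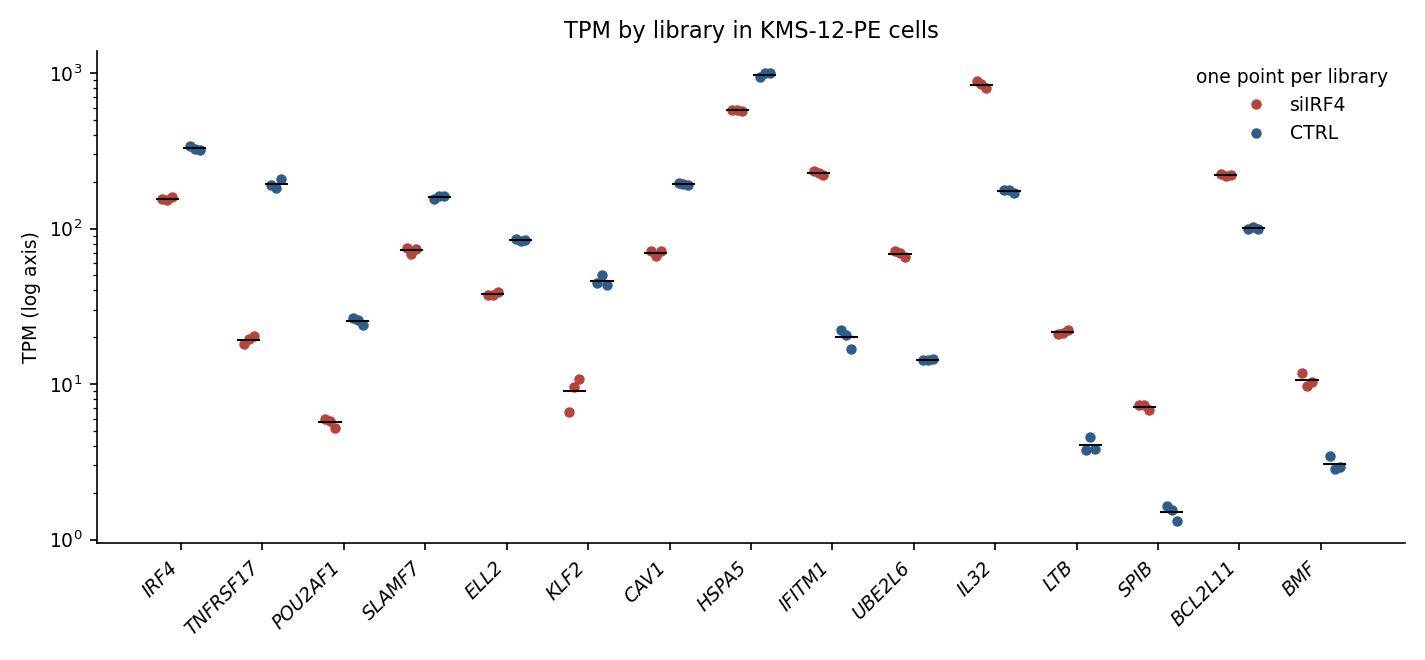
TPM on a log axis for 15 genes, one point per library, siIRF4 in red to the left of CTRL in blue, with a bar at each mean. The groups do not overlap for any gene shown, from IRF4 at 155 and 327 TPM to BMF at 10.6 and 3.07 TPM.

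Of 14 genes that earlier work tied to IRF4 in myeloma, 13 were tested, 11 were called lower and 1 higher, and the median change was -0.47. KLF2, a quiescence and homing factor of lymphocytes, had 6.66, 9.62 and 10.8 TPM in siIRF4 libraries, against 44.6, 49.9 and 43.3 TPM in CTRL libraries (-2.25 ± 0.17, adjusted p 0.00018). CAV1, the caveolin that shapes membrane pits, had 72.0, 67.0 and 71.3 TPM in siIRF4 libraries, against 195, 193 and 190.4 TPM in CTRL libraries (-1.45 ± 0.04, adjusted p 5.3e-09). All 4 tested caveolin and cavin genes fell, CAV2 and PTRF (cavin 1) by 0.65 and 0.97 on the log2 scale, and MURC (cavin 4) by 0.85. CAV1 fell in all 4 lines, and its difference was -0.37 (adjusted p 0.011) from KMS-12-BM and -0.14 (adjusted p 0.22) from the MM1 lines. MYC, the growth regulator that IRF4 is known to activate in myeloma, had 962, 958 and 941 TPM in siIRF4 libraries, against 1205, 1226 and 1074 TPM in CTRL libraries (-0.29 ± 0.05, adjusted p 0.00084). Its groups did not overlap, but the change was small beside those of KLF2 and CAV1. MYC changed by 0.46 in MM1R and 0.23 in MM1S, and the difference from the MM1 lines was -0.63 (adjusted p 2.1e-09). CDK6, a cell cycle kinase, HK2, a hexokinase, and SCD, a fatty acid desaturase, fell by 0.49, 0.47 and 0.43, and ZEB1 was not called. BMF, the member called higher, is described with the apoptosis genes.

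B cell genes moved the other way. Of 29 on the list 15 were expressed enough to test, and of these 9 were called higher and 4 lower, with a median of 0.55. Where only genes averaging at least 5 TPM were kept, the counts were 5 and 3. For the 15 genes the medians were -0.02 in KMS-12-BM, 0.37 in MM1R and 0.50 in MM1S. The change in KMS-12-PE was higher than in the MM1 lines for 6 and lower for 8. Against KMS-12-BM it was higher for 8 and lower for 1. SPIB, an ETS factor of B cells that can partner IRF proteins, had 7.38, 7.30 and 6.79 TPM in siIRF4 libraries, against 1.64, 1.56 and 1.32 TPM in CTRL libraries (1.71 ± 0.10, adjusted p 4.8e-07). ID3, an inhibitor of E proteins, had 54.7, 56.6 and 54.4 TPM in siIRF4 libraries, against 18.7, 19.9 and 17.4 TPM in CTRL libraries (1.52 ± 0.06, adjusted p 3.0e-08). The groups of both genes are well apart, and ID3 changed by -0.21 in KMS-12-BM, a difference of 1.73 (adjusted p 8.7e-12). CD83, an activation marker, rose by 1.18. Among signalling members, PTPN6, the phosphatase SHP-1, fell by 0.69, the adaptor BLNK by 0.49 and the kinase BTK by 0.46.

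Several genes best known from lymphocytes were among the 15 largest rises. VPREB1, a surrogate light chain of B cell precursors, had 25.0, 23.5 and 26.6 TPM in siIRF4 libraries, against 5.35, 4.98 and 5.93 TPM in CTRL libraries (2.02 ± 0.08, adjusted p 3.1e-08). LCK, a kinase of antigen receptor signalling best known in T cells, had 11.4, 9.39 and 9.83 TPM in siIRF4 libraries, against 2.49, 1.33 and 1.61 TPM in CTRL libraries (2.01 ± 0.15, adjusted p 5.2e-06). In both cases the lowest siIRF4 library is far above the highest CTRL library. Of the 13 T and NK cell markers 8 were tested, 5 were called higher and none lower, among them CD3E (26.5 TPM in siIRF4 against 9.51 TPM in CTRL), CD7 (21.0 TPM in siIRF4 against 8.61 TPM in CTRL) and PRF1 (3.14 TPM in siIRF4 against 0.0704 TPM in CTRL). PRF1 and NKG7 reached 1 TPM only in siIRF4 libraries and could hardly be called lower, so the filter partly set that count. The list summed to 74.5 to 82.1 TPM in siIRF4 libraries, against 32.3 to 35.9 TPM in CTRL libraries. The defining T cell gene CD3D was at 0 in all siIRF4 libraries, and CD2 did not pass 0.763 TPM there. The rise of LCK exceeded that in the MM1 lines, where it averaged at or under 0.138 TPM, by 2.02 (adjusted p 3.2e-10). SIT1 and PVRIG, a signalling adaptor and an inhibitory receptor of lymphocytes, rose by 1.91 and 1.78.

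MHC class II genes, which present peptides to helper T cells, were all expressed enough to test, and 13 of 16 list members were called higher and none lower, with a median of 0.49. The list summed to 2608 to 2746 TPM in siIRF4 libraries, against 1920.4 to 2128 TPM in CTRL libraries. HLA-DQA1 had 303, 287 and 293 TPM in siIRF4 libraries, against 181, 177 and 182 TPM in CTRL libraries (0.71 ± 0.04, adjusted p 2.4e-07). HLA-DRB1 had 159, 155 and 150.4 TPM in siIRF4 libraries, against 99.2, 104 and 96.4 TPM in CTRL libraries (0.63 ± 0.04, adjusted p 2.3e-06). Groups are apart for both, and reads of the HLA-DRB genes can be shared between near-identical copies. CIITA, the master coactivator of class II genes, rose as well and was chosen after its values were seen, with 69.2, 62.2 and 64.1 TPM in siIRF4 libraries, against 42.5, 42.3 and 39.4 TPM in CTRL libraries (0.64 ± 0.06, adjusted p 1.1e-05). The change was higher in KMS-12-PE than in KMS-12-BM for 12 of the 16 genes and than in the MM1 lines for 12, where 8.56% and 19.7% of all tested genes were. The medians of the list were 0.01 in KMS-12-BM, 0.13 in MM1R and -0.09 in MM1S. HLA-DQA1, HLA-DRB1 and HLA-DRB5 averaged 4.71 TPM or less in the other lines, so for them the difference is close to the KMS-12-PE change alone and is no comparison of responses. Of 14 tested genes of MHC class I and antigen processing, 8 were called higher and none lower, with a median of 0.24, PSMB8, an immunoproteasome subunit, by 0.86.

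Interferon-stimulated genes rose as a group, though not all of them. Of 45 on the list 30 were tested, 20 were called higher and 4 lower, with a median of 0.59. IFITM1, a membrane protein that blocks virus entry, had 235, 227 and 219 TPM in siIRF4 libraries, against 22.4, 20.7 and 16.8 TPM in CTRL libraries. No library of one group comes near the other, and the rise was 11.4-fold, 3.45 ± 0.09 on the log2 scale (adjusted p 1.2e-07). KMS-12-BM held it at 204 TPM in siIRF4 against 154 TPM in CTRL, and the rise in KMS-12-PE was larger by 3.05 (adjusted p 1.3e-07). UBE2L6, the enzyme that conjugates ISG15 to proteins, had 71.6, 69.8 and 65.9 TPM in siIRF4 libraries, against 14.3, 14.2 and 14.5 TPM in CTRL libraries (2.19 ± 0.05, adjusted p 1.4e-09). ISG15 itself had 138, 132 and 136 TPM in siIRF4 libraries, against 60.0, 56.5 and 60.4 TPM in CTRL libraries (1.19 ± 0.04, adjusted p 2.3e-08). NUB1, which lowers the level of ubiquitin-like proteins, rose by 1.26. Groups do not overlap for any of these 4 genes. UBE2L6 rose by 1.79 in KMS-12-BM, and it rose more than in the MM1 lines (difference 1.70, adjusted p 1.1e-10). For the list the medians were 0.16 in KMS-12-BM, 0.77 in MM1R and 0.65 in MM1S. The change in KMS-12-PE was higher than in the MM1 lines for 9 of the 30 genes and lower for 10. Against KMS-12-BM it was higher for 14 and lower for 8.

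The 4 members called lower were IFI27 (1.78 TPM in siIRF4 against 6.83 TPM in CTRL), IFITM3 (5.89 TPM in siIRF4 against 11.7 TPM in CTRL), SAMD9L (10.9 TPM in siIRF4 against 20.5 TPM in CTRL) and TRIM22 (0.559 TPM in siIRF4 against 1.24 TPM in CTRL). TRIM22 was chosen after its values were seen, and its call was lost without siIRF4 replicate 1 (adjusted p 0.063) and without CTRL replicate 2 (adjusted p 0.059). IFI27 averaged 4.51 TPM in MM1S CTRL and at or under 0.879 TPM in the MM1R and KMS-12-BM groups, the same order as the genes typical of other tissues, and their part in its fall was not tested. IFITM1, IFITM2 and IFITM3 are close copies, so reads shared among them make their split uncertain. The other 15 list members, IFIT1 and the OAS2, OAS3 and GBP genes among them, did not pass the filter on low values. Upstream of these genes, 4 of 11 tested genes of interferon receptor and STAT signalling were called higher and 3 lower. USP18, a brake on receptor signalling, rose by 1.42, while the receptor chain IFNAR2 fell by 0.48. Of 12 tested sensors of foreign RNA, 5 were called higher and 2 lower, but 3 were called higher without siIRF4 replicate 1 or 3 or without CTRL replicate 1, and without CTRL replicate 3 the counts were 4 and 4.

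Other members of the IRF family rose or were not called. IRF1 had 20.1, 18.3 and 18.8 TPM in siIRF4 libraries, against 10.1, 11.7 and 10.6 TPM in CTRL libraries (0.77 ± 0.07, adjusted p 2.0e-05). IRF8, the closest relative of IRF4, had 6.06, 6.27 and 7.91 TPM in siIRF4 libraries, against 3.94, 3.51 and 3.73 TPM in CTRL libraries (0.71 ± 0.11, adjusted p 0.00045). Its change was larger than in the MM1 lines by 0.68 (adjusted p 2.0e-05). IRF7 and IRF2 rose by 0.69 and 0.33, while IRF3, IRF5 and IRF9 changed by -0.12, 0.24 and 0.13 and were not called.

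To set these changes beside the DNA upstream of the genes, the 250 bases before each start in RefSeq (GRCh38.p14) were searched on both strands for the core interferon-stimulated response element, GAAA and GAAA with any 2 bases between them. It was found for 16 of the 27 tested interferon-stimulated genes with a promoter in the table (59.3%), against 3.31% of the 8813 tested genes that matched by symbol and 3.71% of all 27305 genes in the table. Of the 16, 10 were called higher and 2 lower in siIRF4, and of the 11 without it, 8 were called higher and 1 lower. The ETS-IRF composite element, GGAA and GAAA with any 2 bases between them, which shares letters with it and overlaps it in 22 of 35116 windows, was found for 7 of the 27 (25.9%), against 3.00% of tested genes. The stretches printed are the 8 called list members with the motif and the largest changes, shown because genes that rose and genes that fell carry the same letters. Capitals mark the motif, on either strand.
IFITM1 (chr11:313985-314024, plus strand): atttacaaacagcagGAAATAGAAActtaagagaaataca
IFIT3 (chr10:89327826-89327865, plus strand): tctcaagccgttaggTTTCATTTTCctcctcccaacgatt
PARP12 (chr7:140062952-140062976, minus strand): ccggcccggggccgcTTTCGGTTTC
IFI6 (chr1:27672324-27672363, minus strand): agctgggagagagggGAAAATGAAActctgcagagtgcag
ISG15 (chr1:1013369-1013414, plus strand): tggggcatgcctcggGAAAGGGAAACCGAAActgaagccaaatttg
MX1 (chr21:41431839-41431878, plus strand): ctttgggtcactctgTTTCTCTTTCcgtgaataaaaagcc
IFI27 (chr14:94110613-94110665, plus strand): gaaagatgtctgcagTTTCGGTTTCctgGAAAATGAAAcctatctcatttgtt
IFITM3 (chr11:320871-320927, minus strand): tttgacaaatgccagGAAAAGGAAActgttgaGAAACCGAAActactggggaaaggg
IFIT3, PARP12, IFI6 and MX1, picked by this sequence rule, rose by 1.41, 1.38, 1.37 and 1.02, from low levels in the case of IFIT3 (2.88 TPM in siIRF4 against 0.479 TPM in CTRL) and MX1 (5.88 TPM in siIRF4 against 2.39 TPM in CTRL). IFI27 and IFITM3 fell. More than 1 copy of the motif stood in the windows of genes that fell and of genes that rose, such as ISG15, IFIT3 and IFI6. A match describes the letters only, and shares across lists were not tested.

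Every called gene of the NF-kB list was higher in siIRF4. Of 21 tested NF-kB genes and targets, 13 were called higher and none lower, with a median of 0.39. LTB, the lymphotoxin beta ligand, had 21.1, 21.4 and 22.2 TPM in siIRF4 libraries, against 3.75, 4.54 and 3.83 TPM in CTRL libraries (2.17 ± 0.08, adjusted p 2.2e-08). IL2RG, the common cytokine receptor chain, rose by 0.75 (270.5 TPM in siIRF4 against 161 TPM in CTRL). Neither gene's libraries overlap between groups, and LTB was called higher in all 4 lines, with changes of 1.16 in KMS-12-BM, 1.54 in MM1R and 0.99 in MM1S.

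IL32, an inflammatory cytokine made by lymphocytes, was the most abundant of the 15 largest rises. It had 884, 845 and 801 TPM in siIRF4 libraries, against 178, 176 and 170.3 TPM in CTRL libraries, so the groups are 4.82-fold apart (2.26 ± 0.04, adjusted p 2.0e-10). The other lines held at most 8.27 TPM in either condition. CCL5, a chemokine for T cells, had 31.8, 27.4 and 27.5 TPM in siIRF4 libraries, against 4.74, 4.78 and 5.23 TPM in CTRL libraries (2.34 ± 0.08, adjusted p 1.2e-08). Its rise exceeded that in KMS-12-BM by 1.57 and that in the MM1 lines by 1.89 (adjusted p 8.3e-09 and 1.3e-11).

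Chemokine receptors split. CXCR4, which holds plasma cells in the bone marrow, had 287, 285 and 289 TPM in siIRF4 libraries, against 129, 135 and 130.1 TPM in CTRL libraries (1.12 ± 0.04, adjusted p 9.9e-09). CCR2, a receptor for monocyte chemokines, had 5.02, 4.86 and 4.93 TPM in siIRF4 libraries, against 25.0, 25.0 and 25.7 TPM in CTRL libraries (-2.14 ± 0.06, adjusted p 5.3e-09). CXCR4 was higher and CCR2 lower in every siIRF4 library. CCR7, the lymph node homing receptor, rose by 1.39 (3.56 TPM in siIRF4 against 0.72 TPM in CTRL). The rise of CXCR4 was larger than in KMS-12-BM (difference 0.96, adjusted p 2.5e-11) and than in the MM1 lines (difference 1.04, adjusted p 1.4e-13). Of adhesion genes, ITGAL, the alpha chain of LFA-1, rose by 0.97, and SELPLG, the selectin ligand PSGL-1, fell by 1.03. Of 10 tested chemokines and receptors 6 were called higher and 3 lower, and of 14 tested integrins and adhesion genes 3 higher and 7 lower. Where genes under 5% of their MM1 level were set aside, 11 integrins and adhesion genes were tested, 3 called higher and 5 lower.

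The ER folding machinery fell. Of 33 tested genes of ER folding and the unfolded protein response, 27 were called lower and none higher, with a median of -0.29. HSPA5, the main ER chaperone BiP, had 577, 581 and 570.0 TPM in siIRF4 libraries, against 941, 998 and 996 TPM in CTRL libraries (-0.76 ± 0.04, adjusted p 1.0e-07). SEL1L, the scaffold of the ligase that clears misfolded ER proteins, had 53.4, 49.2 and 54.2 TPM in siIRF4 libraries, against 121, 121 and 117 TPM in CTRL libraries (-1.18 ± 0.05, adjusted p 3.9e-08). PDIA4, a disulfide isomerase, had 347, 356 and 352 TPM in siIRF4 libraries, against 610.5, 617 and 593 TPM in CTRL libraries (-0.79 ± 0.03, adjusted p 5.7e-08). Each of the 3 was lower in every siIRF4 library, by a margin far above the spread within a group. The change was lower in KMS-12-PE than in the MM1 lines for 28 of 33 genes, where 26.6% of all tested genes were, and than in KMS-12-BM for 13, where 17.1% were. HSPA5 changed by -0.77 in KMS-12-BM, 0.09 in MM1R and 0.02 in MM1S.

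The ER stress response element, CCAAT and CCACG with any 9 bases between them, the site through which ATF6 and XBP1 act on chaperone genes, was searched in the same 250 bases. It was present for 6 of 29 list members with a promoter in the table (20.7%), against 0.159% of tested genes and 0.0916% of all genes in the table. All 6 were called lower, as were 17 of the 23 without it. They are printed because they include the most abundant chaperones of the list, with the motif in capitals on either strand.
HSPA5 (chr9:125241381-125241419, minus strand): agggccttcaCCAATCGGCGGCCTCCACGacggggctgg
HSP90B1 (chr12:103930206-103930244, plus strand): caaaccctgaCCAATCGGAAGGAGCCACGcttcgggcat
PDIA6 (chr2:10812843-10812881, minus strand): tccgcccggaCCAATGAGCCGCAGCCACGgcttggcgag
CALR (chr19:12938374-12938412, plus strand): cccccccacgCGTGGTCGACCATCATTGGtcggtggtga
CANX (chr5:179698768-179698806, plus strand): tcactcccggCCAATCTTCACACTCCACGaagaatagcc
CRELD2 (chr22:49918544-49918582, plus strand): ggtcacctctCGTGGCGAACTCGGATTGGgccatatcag
HSP90B1, the ER paralog of HSP90, averaged 1318 TPM in siIRF4 against 2235 TPM in CTRL, PDIA6, an isomerase, 221 TPM in siIRF4 against 360.1 TPM in CTRL, and the lectin chaperones CALR 1204 TPM in siIRF4 against 1663 TPM in CTRL and CANX 274 TPM in siIRF4 against 377 TPM in CTRL. The fall was smallest in CRELD2, at -0.16 ± 0.05 (adjusted p 0.027), and its call was lost in 7 of 19 alternatives.

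Several lists of protein synthesis and growth metabolism also fell, with medians from -0.34 to -0.12. Of 25 tested genes of the ATF4 and amino acid response, 22 were called lower and 2 higher, with a median of -0.34. The asparagine synthetase ASNS fell by 0.59 and the tryptophan tRNA ligase WARS by 0.66. DDIT4, a brake on the mTORC1 kinase, went the other way, with 92.9, 87.3 and 85.6 TPM in siIRF4 libraries, against 41.4, 38.7 and 34.6 TPM in CTRL libraries (1.20 ± 0.07, adjusted p 3.9e-07). Heat shock proteins were called lower in 15 of 19 genes, with HSPA8, the constitutive HSP70, at 2569 TPM in siIRF4 against 3487 TPM in CTRL. Genes listed under ribosome biogenesis were called lower in 23 of 32 and higher in none, among them DDX21 (-0.46), an RNA helicase of the nucleolus. The lowest value on that list was that of ODC1 (-0.63), which is a polyamine enzyme and no ribosome factor. Cholesterol synthesis was called lower in 14 of 24, with MSMO1 lower by 0.60 and HMGCS1 by 0.58, enzymes of the middle and the start of the pathway. Proteasome subunits were called lower in 20 of 33 genes, but in 11 with median-of-ratios scaling, in 13 without siIRF4 replicate 1 and in 12 without siIRF4 replicate 3, and their median was -0.12.

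Cytosolic ribosomal proteins were called higher in 24 of 36 and lower in none, with a median of 0.12. That count was 33 in the test on recovered reads, 13 without a mean-variance trend in limma and 16 without siIRF4 replicate 2. In glycolysis, PDK1, the kinase that keeps pyruvate out of mitochondria, fell, with 23.7, 21.7 and 23.4 TPM in siIRF4 libraries, against 59.4, 57.7 and 57.4 TPM in CTRL libraries (-1.31 ± 0.05, adjusted p 3.6e-08), while the list had 3 members called higher and 5 lower of 24, a share below that of all tested genes. Without CTRL replicate 3 the list had 3 called higher and 9 lower.

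**Figure D4:**
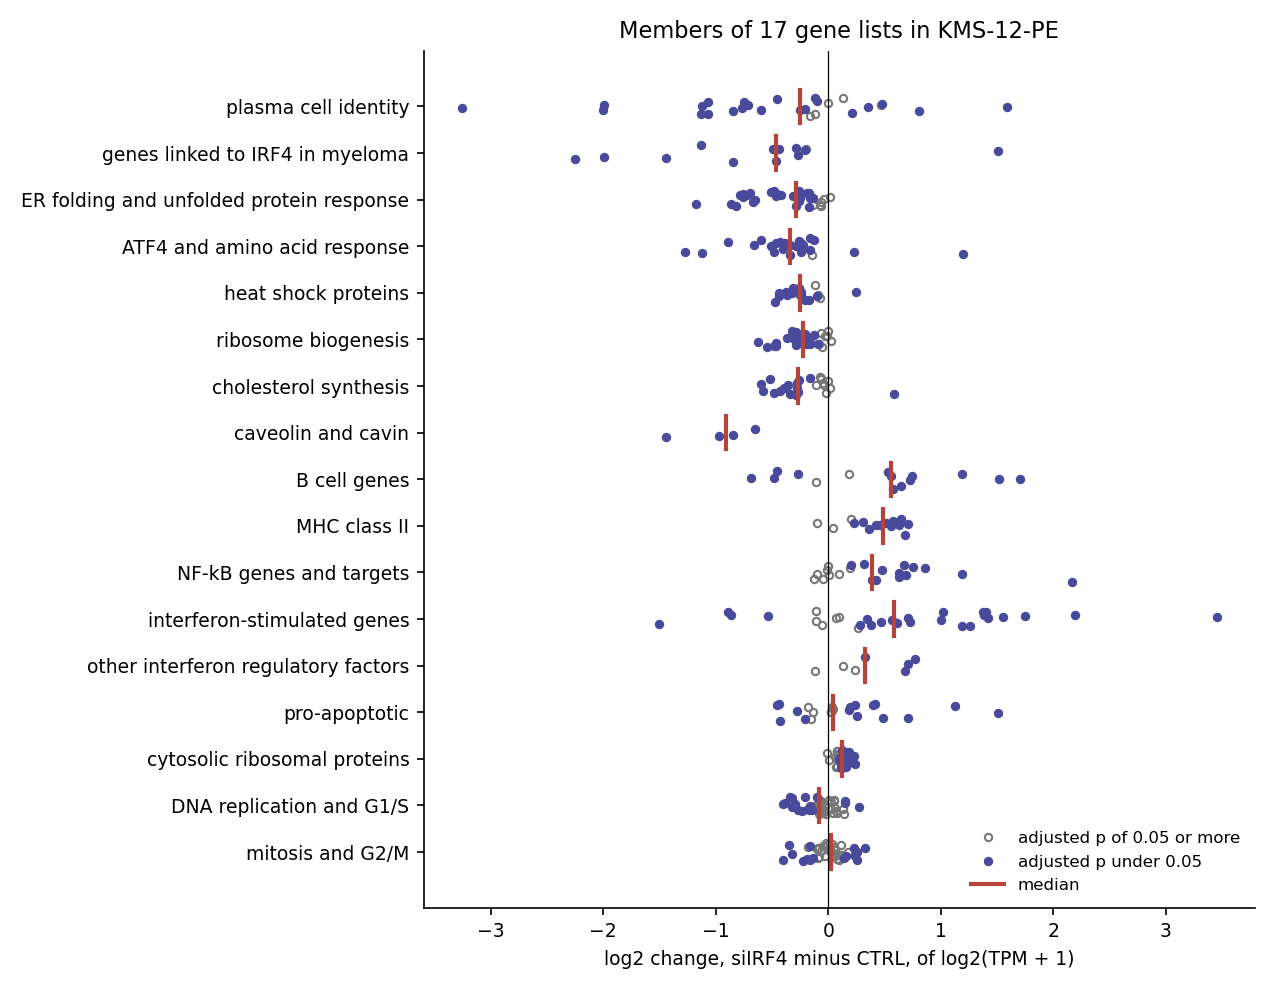
Log2 change (siIRF4 minus CTRL) of each tested member of a set of gene lists in KMS-12-PE, filled where the adjusted p was under 0.05, with a red bar at each median. Medians lie lowest for caveolin and cavin genes at -0.91 and highest for interferon-stimulated genes at 0.59, and the bars of the cell cycle lists lie near 0.

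Cell cycle genes were called about as often as all tested genes (39.1%), with medians near 0. Of 43 DNA replication and G1/S genes, 3 were called higher and 14 lower, with a median of -0.08, and of 42 mitosis and G2/M genes 8 were called higher and 8 lower, with a median of 0.02. The test on recovered reads called 15 of the mitosis genes higher and 7 lower, and 4 were called lower without siIRF4 replicate 2 or 3 or CTRL replicate 1. MKI67, the proliferation antigen, had 67.6, 59.6 and 67.2 TPM in siIRF4 libraries, against 91.0, 86.4 and 79.9 TPM in CTRL libraries (-0.40 ± 0.06, adjusted p 0.00064). CKS2, a cofactor of mitotic CDKs, had 1335, 1259 and 1232 TPM in siIRF4 libraries, against 1021, 987 and 1051 TPM in CTRL libraries (0.32 ± 0.04, adjusted p 0.00013). Both differ beyond their spread, in opposite directions. In the MM1 lines both lists lay lower, with medians of -0.67 in MM1R and -0.81 in MM1S for replication and -0.71 and -0.62 for mitosis. By the test of the difference for each gene, the change in KMS-12-PE was higher than in the MM1 lines for all 43 and all 42 genes, where 19.7% of all tested genes were. Against KMS-12-BM the difference was called lower for 1 of 43 replication genes, and for mitosis genes higher for 3 and lower for 6 of 42.

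Among regulators of the cycle, CCND1 was not called, with 479, 481 and 479 TPM in siIRF4 libraries, against 497, 516 and 477 TPM in CTRL libraries. CDKN1A, the CDK inhibitor p21, fell, with 17.7, 16.1 and 15.4 TPM in siIRF4 libraries, against 30.3, 27.9 and 23.2 TPM in CTRL libraries (-0.69 ± 0.09, adjusted p 0.00032). The groups overlap for CCND1 and not for CDKN1A. p53 targets were called higher in 10 and lower in 8 of 23, and without siIRF4 replicate 3 in 5 and 8. The shares over all tested genes were 17.1% higher and 22.0% lower.

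**Figure D5:**
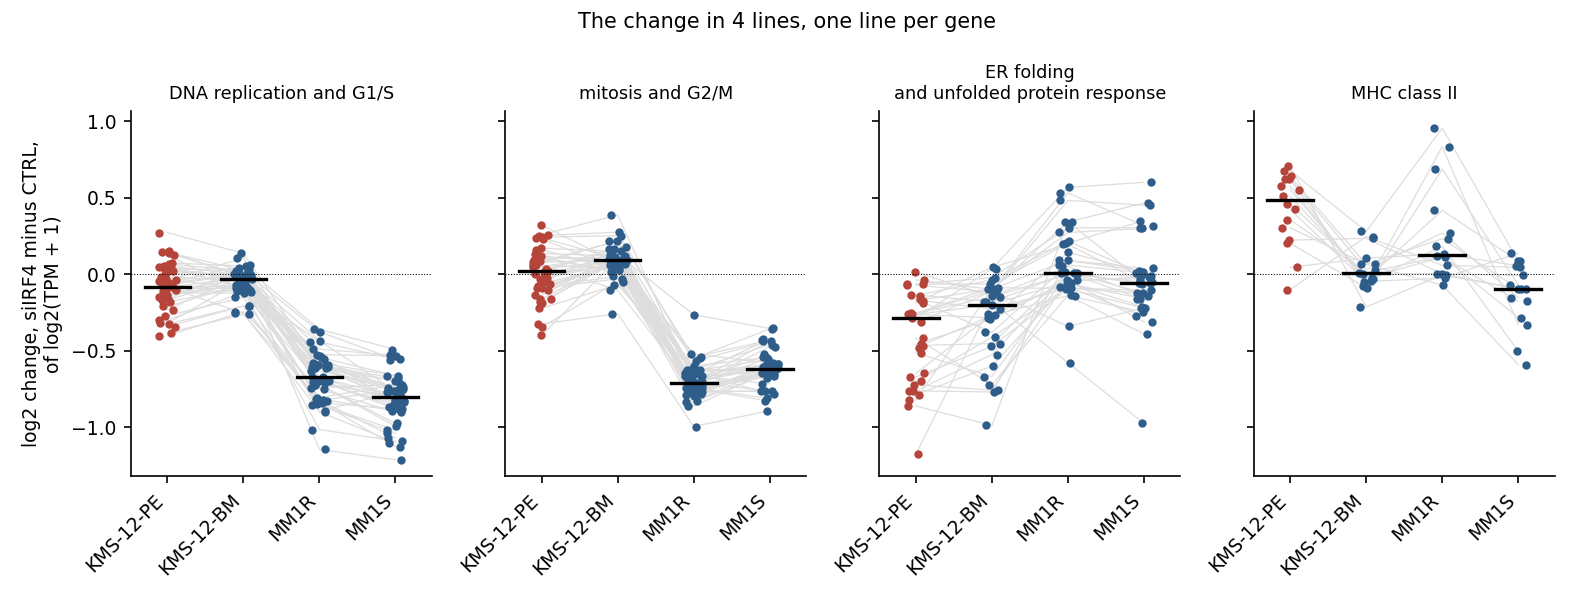
Log2 change (siIRF4 minus CTRL) in each line for 4 gene lists, with KMS-12-PE in red at the left, grey lines joining a gene across lines and black bars at the medians. Replication and mitosis genes lie near 0 in KMS-12-PE and KMS-12-BM and near -0.7 in the MM1 lines, while ER folding genes lie lowest and MHC class II genes highest in KMS-12-PE by their medians.

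Of 22 tested pro-apoptotic genes 10 were called higher and 5 lower, with a median of 0.04. Over all tested genes 17.1% were called higher and 22.0% lower. BCL2L11, the BH3-only protein BIM that neutralises BCL2 relatives, had 224, 218 and 221 TPM in siIRF4 libraries, against 98.7, 103 and 100 TPM in CTRL libraries (1.13 ± 0.04, adjusted p 1.2e-08). BMF, another BH3-only protein, had 11.8, 9.75 and 10.2 TPM in siIRF4 libraries, against 3.45, 2.83 and 2.94 TPM in CTRL libraries (1.51 ± 0.10, adjusted p 1.4e-06). Every siIRF4 library lies above every CTRL library for both. BCL2L11 rose more than in KMS-12-BM, by 0.46 (adjusted p 1.5e-05), and than in the MM1 lines, by 0.88 (adjusted p 2.7e-11). For BMF the difference from the MM1 lines was -0.20 ± 0.12 and was not called, and those lines held more of it, with 152 TPM in siIRF4 against 52.4 TPM in CTRL in MM1R. FAS, a death receptor, rose by 0.71 (31.7 TPM in siIRF4 against 19.0 TPM in CTRL). Of 10 tested anti-apoptotic genes 4 were called higher, among them BIRC3 (0.63), and 2 lower, BCL2 (-0.21) and BCL2L2 (-0.53), while MCL1 was not called (241 TPM in siIRF4 against 228 TPM in CTRL). The count called higher was 1 without siIRF4 replicate 1 or without a mean-variance trend, and 2 without siIRF4 replicate 3 or CTRL replicate 1.

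Acetyltransferases, acetyl readers and deacetylases, which write, read and remove a mark of active chromatin, were called higher in 8 and lower in 5 of 24. Without 1 library the counts ranged from 5 to 8 higher and 2 to 8 lower, and without CTRL replicate 3 they were 6 and 8. For comparison, 17.1% of all tested genes were called higher and 22.0% lower. HDAC7, a deacetylase of lymphoid cells, had 108, 102 and 110.0 TPM in siIRF4 libraries, against 47.6, 50.5 and 40.3 TPM in CTRL libraries (1.20 ± 0.08, adjusted p 3.6e-06). Its groups do not overlap. EP300, the p300 acetyltransferase, averaged 19.6 TPM in siIRF4 against 22.3 TPM in CTRL, and its paralog CREBBP 22.9 TPM in siIRF4 against 25.8 TPM in CTRL, and neither was called (adjusted p 0.09 and 0.2).

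Among the remaining genes of the largest changes, SMIM24, a small membrane protein, had 17.6, 13.4 and 14.5 TPM in siIRF4 libraries, against 0.354, 0.363 and 0.581 TPM in CTRL libraries (3.49 ± 0.12, adjusted p 1.3e-08). The MM1 lines held it at or under 0.296 TPM, while KMS-12-BM held 32.9 TPM in siIRF4 against 7.00 TPM in CTRL. AMPD1, an AMP deaminase best known from muscle, had 1.36, 1.16 and 1.25 TPM in siIRF4 libraries, against 17.2, 15.6 and 17.3 TPM in CTRL libraries (-2.97 ± 0.09, adjusted p 5.3e-09). Both genes were close to silent in one of the groups. The mean of AMPD1 was 13.3-fold lower in siIRF4, a larger ratio than that of TNFRSF17. AMPD1 fell further than in KMS-12-BM (difference -1.53, adjusted p 1.4e-08) and than in the MM1 lines (difference -2.07, adjusted p 3.1e-12).

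KREMEN2, a receptor of the Wnt pathway, had 46.7, 48.9 and 47.6 TPM in siIRF4 libraries, against 11.2, 8.93 and 8.31 TPM in CTRL libraries (2.23 ± 0.09, adjusted p 6.5e-08). CHRNA2, a subunit of nicotinic acetylcholine receptors, had 11.9, 11.2 and 11.3 TPM in siIRF4 libraries, against 1.42, 1.30 and 1.09 TPM in CTRL libraries (2.46 ± 0.09, adjusted p 2.3e-08). All siIRF4 libraries are high and all CTRL libraries low for both. ASB2, a subunit of a ubiquitin ligase, and SP140L, a nuclear body protein, rose by 1.87 (79.5 TPM in siIRF4 against 21.0 TPM in CTRL) and 1.80 (20.5 TPM in siIRF4 against 5.17 TPM in CTRL), and FAM43A by 2.23 (18.0 TPM in siIRF4 against 3.04 TPM in CTRL). KREMEN2 averaged 173 TPM in siIRF4 against 142 TPM in CTRL in KMS-12-BM, more than in KMS-12-PE in either condition.

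HRASLS2, a phospholipid-modifying enzyme, had 10.9, 11.7 and 11.2 TPM in siIRF4 libraries, against 69.6, 67.3 and 83.5 TPM in CTRL libraries (-2.60 ± 0.08, adjusted p 5.8e-09). ST3GAL6, a sialyltransferase, had 3.77, 4.33 and 4.41 TPM in siIRF4 libraries, against 22.6, 19.4 and 25.4 TPM in CTRL libraries (-2.18 ± 0.10, adjusted p 9.9e-08). The groups are far apart for both genes. HRASLS2 fell in the MM1 lines too, to 7.21 TPM in siIRF4 against 22.1 TPM in CTRL in MM1R. TRIM49B, one of a family of near-identical copies among which reads are hard to assign, averaged 14.8 TPM in siIRF4 against 94.4 TPM in CTRL (-2.61, adjusted p 3.2e-07) and stood at or under 0.391 TPM in the other lines.

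Of the other large falls, SLPI, PI3, DCN and SPRR2D are among the genes typical of other tissues. ANXA1, a phospholipid-binding protein, had 1.67, 2.13 and 2.01 TPM in siIRF4 libraries, against 13.2, 12.3 and 8.53 TPM in CTRL libraries (-2.05 ± 0.14, adjusted p 5.0e-06). MM1S held ANXA1 at 9.54 TPM in siIRF4 against 7.98 TPM in CTRL, and MM1R and KMS-12-BM held it at or under 0.575 TPM. SLPI and PI3, protease inhibitors of epithelia, fell by 2.14 and 2.03, DCN, a matrix proteoglycan of fibroblasts, by 2.04, and SPRR2D, a protein of the skin barrier, by 1.84. S100A9, a calcium-binding protein of myeloid cells and stressed epithelia that MM1R also expressed, had 18.6, 27.3 and 25.9 TPM in siIRF4 libraries, against 113, 91.9 and 93.3 TPM in CTRL libraries (-2.02 ± 0.17, adjusted p 0.00069). No siIRF4 library reached the lowest CTRL library for any of these genes, and the part of RNA of other tissues in these falls was not tested.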

How the data were processed

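RNA was sequenced from 4 myeloma cell lines in 8 groups of 3 libraries. The deposited values are TPM, made by the authors from reads aligned to hg19 with STAR and counted with featureCounts, per the submitters' processing notes, which give no versions. Each library sums to 1000000 TPM over 25370 listed genes. The 28 symbols turned into calendar dates and 1 row with no name were dropped, at most 0.147% of the TPM, which left 25341. KMS-12-PE libraries were compared on log2(TPM + 1) with limma 3.58.1 in R 4.3.3 (robust empirical Bayes with a mean-variance trend), with Benjamini-Hochberg adjustment over all 12399 tested genes at 0.05. Differences between lines came from 1 fit of 24 libraries in 8 groups. TPM corrects for length but not for composition, so a change in abundant transcripts shifts all others. Whole reads were recovered from the steps of the low TPM values for 20484 genes, to within 0.02 of a read and covering at least 99.96% of the TPM, and gave 17299851 to 27382497 reads a library and a count-based alternative with voom. The fit was tested on simulated data.

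Genes named in the text are IRF4, the 15 largest rises and 15 largest falls among called genes with groups that do not overlap and at least 5 TPM in the higher group, the 5 largest differences from each comparison line in each direction, up to 3 members of each list in each direction by p, all members of the identity, IRF and apoptosis lists, EP300 and CREBBP, and some of these are not reported here. The members and the 42 lists were chosen with earlier results of these data known. Promoters came from RefSeq tables of GRCh38.p14, and no coordinate of hg19 was used. Figures were drawn with matplotlib 3.10.9.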

Additional observations from a re-analysis of the deposited data

Results flagged for a closer look

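For 15 genes, 20 differences of the siIRF4 change between KMS-12-PE and a comparison line were picked out as the largest by the test of the difference itself, limma over 24 libraries with Benjamini-Hochberg adjustment at 0.05. Set against KMS-12-BM, the change in KMS-12-PE was higher for IFITM1 by 3.05, CHRNA2 by 2.46, FAM43A by 2.23, VPREB1 by 2.02 and KREMEN2 by 1.95 on the log2 scale. In the same comparison it was lower for TRIM49B at -2.75, HRASLS2 at -2.61, ST3GAL6 at -2.45, SLPI at -2.14 and PI3 at -2.12. Set against the mean of MM1R and MM1S, it was higher for SMIM24 by 3.35, IFITM1 by 2.67, KREMEN2 by 2.59, LCK by 2.02 and CHRNA2 by 1.96. Lower than in the MM1 lines were S100A9 at -3.00, TRIM49B at -2.60, TNFRSF17 at -2.39, DCN at -2.34 and SLPI at -2.30.

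Several of these genes were near 0 in the comparison line, so the difference is close to the change in KMS-12-PE alone. VPREB1 was at 0 in both KMS-12-BM groups, and CHRNA2 averaged 0.0753 TPM in siIRF4 against 0.0767 TPM in CTRL there. TNFRSF17 was well expressed in the MM1 lines and IFITM1 in KMS-12-BM. DCN, SLPI and PI3 are typical of other tissues, whose RNA moved with the groups in KMS-12-PE, and its part in these differences was not tested. S100A9, which MM1R also expressed, averaged 82.9 TPM in siIRF4 against 75.4 TPM in CTRL in MM1S and 94.7 TPM in siIRF4 against 24.8 TPM in CTRL in MM1R. With the replicate number as a block, the difference of PI3 from KMS-12-BM was no longer called (adjusted p 0.074).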

How the results depend on the processing

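IRF4 and the counts of genes called over all tested genes were recomputed under 19 alternatives, and the counts of differences between lines under 11, and these counts stayed within 1.5 times the reported ones. Some counts within gene lists moved by more, as for DNA replication genes, called higher for 3, against 1 without a mean-variance trend and 6 on recovered reads, and for cyclin D, CDK and inhibitor genes, called higher for 3, against 7 on recovered reads. For siIRF4 against CTRL, genes higher numbered 1565 to 1995 and genes lower 2065 to 3046 when 1 library was left out, and IRF4 then changed by -1.09 to -1.05. The share of calls that were higher was 43.6%, against 55.0% on recovered reads (2997 higher, 2454 lower), and median-of-ratios scaling, which shifts TPM by 0.02 on the log2 scale and low genes on log2(TPM + 1) by less, called 2524 higher and 2493 lower. Other settings called 1812 to 2377 higher and 2473 to 3105 lower. The difference from KMS-12-BM was called higher for 1061 and lower for 2126 genes, against 1505 and 1527 with median-of-ratios scaling. With 1 library left out, the difference from KMS-12-BM was called higher for 855 to 1083 and lower for 1602 to 2089 genes, and that from the MM1 lines higher for 2193 to 2376 and lower for 2813 to 3394. Of 124 genes described, 109 kept their call in every alternative that tested them and none changed direction. Calls were lost in at least 1 for XBP1, CRELD2, TXNDC5, CD38, TRIM22, IGJ, PI3 and SPRR2D. Calls were gained in at least 1 for IRF5, ZEB1, EP300, CREBBP, IRF3, MCL1 and SDC1. The replicate block called 1976 genes higher and 2525 lower. Same-numbered siIRF4 and CTRL libraries had correlations of -0.07, -0.00028 and -0.05 in their deviations from the group means. For libraries of unlike numbers these were -0.01 to 0.06. No pairing by number was seen, but 3 libraries a group cannot exclude it. The setting aside of tissue genes and the subtraction of the MM1 share were chosen after seeing the data. Genes under 1 TPM in most libraries were not tested, so changes in weakly expressed genes are outside these counts.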

Other observations

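Immediate early and AP-1 genes, the first responders to growth and stress signals, were called lower for 11 and higher for 6 of 21, with a median of -0.25. Among the 13 that averaged at least 5 TPM, 5 were called lower and 5 higher. NR4A1, an orphan nuclear receptor, fell by 1.13 (2.32 TPM in siIRF4 against 6.27 TPM in CTRL), and JUN, an AP-1 subunit, by 0.64 (9.17 TPM in siIRF4 against 14.8 TPM in CTRL). PIM2, a survival kinase of plasma cells, fell by 0.45 (194 TPM in siIRF4 against 266 TPM in CTRL). Fatty acid synthesis genes were called lower for 7 and higher for none of 13. Replication-dependent histones were called higher for 6 and lower for none of 22, but without CTRL replicate 2 for 6 and 5, with the median at -0.05 in place of 0.18, and their near-identical copies make single members uncertain.

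Other lists had calls in both directions, set here beside the 17.1% of all tested genes called higher and 22.0% called lower. Respiratory chain genes were called higher for 5 and lower for 2 of 29, NRF2 targets for 5 and 4 of 17, lysosome and autophagy genes for 4 and 7 of 24, purine enzymes for 4 and 5 of 17, genes of the MYC network for 3 and 1 of 11, and cyclin D, CDK and inhibitor genes for 3 and 6 of 19. These counts moved when 1 library was left out, to 2 and 1 for respiratory chain genes without siIRF4 replicate 3, to 2 and 5 for lysosome genes without CTRL replicate 1, to 3 and 4 for NRF2 targets without siIRF4 replicate 2 or 3, and to 1 and 1 for the MYC network without siIRF4 replicate 1 or CTRL replicate 1. No erythroid or platelet marker passed the filter on low values, and the endothelial marker that did was not called, although 3 alternatives called it lower.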
